A study of Homo sapiens with 2 samples.

Results

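The thymosin beta genes TMSB4X and TMSB10 and the pseudogenes of TMSB4X were examined in RNA from human embryonic stem cells of the established line H1 that had been differentiated to Stage 6, a mixed culture in which part of the cells make insulin. The members were chosen by symbol, as TMSB4X, TMSB10 and every gene named TMSB4XP with a number, and came to 8 of the 55797 genes in the deposited RNA-seq values, of which 6 are pseudogenes. The culture was split into 1 live sample, neither fixed nor sorted, with RNA from the RNeasy protocol, and 1 processed sample taken through MARIS, in which cells were fixed with 4% paraformaldehyde, permeabilized, antibody stained and passed through a sorter that collected all cells, with RNA from a modified RecoverAll kit. No cell was enriched for insulin, no gene was altered and no replicate of either library was analysed here, so that no difference below has a replicate check and none was tested. The members were proposed with the RNA-seq values in view, and the low value of TMSB4XP1 in processed cells was among them, so the values that follow are a description.

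Beta thymosins are very small proteins that bind actin monomers and hold them in a pool from which filaments can grow. TMSB4X encodes thymosin beta 4, the main such protein of many cells, and TMSB10 encodes its close relative thymosin beta 10, which is abundant in embryonic tissues and many cultured cells. Both mRNAs are short and abundant, and copies of the TMSB4X mRNA have been inserted into the genome without introns, which gave rise to pseudogenes on several chromosomes. Reads from such a copy and from its parent can be hard to tell apart.

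The coding sequences are shown because a read of a pseudogene can be told from one of its parent only where their bases differ. Each is the stretch that aligned to the 135 coding bases of TMSB4X, start and stop codon included, written 5′ to 3′ on the strand of the gene, with GRCh37 coordinates, and capitals mark bases that differ from TMSB4X. The coordinates of TMSB4X and TMSB10 span 1 intron each within the coding part, and the bases shown are those of the spliced transcript.
TMSB4X (chrX:12994381-12994930, plus strand): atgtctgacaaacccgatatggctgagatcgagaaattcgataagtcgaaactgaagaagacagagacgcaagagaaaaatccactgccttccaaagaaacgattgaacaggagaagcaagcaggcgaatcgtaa
TMSB10 (chr2:85133142-85133547, plus strand): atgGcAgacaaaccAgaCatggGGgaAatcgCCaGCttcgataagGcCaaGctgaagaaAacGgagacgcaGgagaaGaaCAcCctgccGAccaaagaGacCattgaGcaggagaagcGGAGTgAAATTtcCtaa
TMSB4XP6 (chr20:49457152-49457286, minus strand): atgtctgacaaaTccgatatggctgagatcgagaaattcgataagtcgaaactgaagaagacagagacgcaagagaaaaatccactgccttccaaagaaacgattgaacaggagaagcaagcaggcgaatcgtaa
TMSB4XP8 (chr4:91760054-91760188, minus strand): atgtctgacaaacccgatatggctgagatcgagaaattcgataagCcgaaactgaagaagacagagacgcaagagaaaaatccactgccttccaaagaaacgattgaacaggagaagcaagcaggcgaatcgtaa
TMSB4XP1 (chr1:42965876-42966010, minus strand): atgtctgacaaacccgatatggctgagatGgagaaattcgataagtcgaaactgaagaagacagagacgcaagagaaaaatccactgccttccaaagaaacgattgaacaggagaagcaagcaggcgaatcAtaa
TMSB4XP4 (chr9:131104511-131104645, plus strand): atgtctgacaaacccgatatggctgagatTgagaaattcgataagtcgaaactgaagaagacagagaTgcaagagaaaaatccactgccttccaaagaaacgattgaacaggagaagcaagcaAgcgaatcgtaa
TMSB4XP2 (chr2:3665138-3665272, minus strand): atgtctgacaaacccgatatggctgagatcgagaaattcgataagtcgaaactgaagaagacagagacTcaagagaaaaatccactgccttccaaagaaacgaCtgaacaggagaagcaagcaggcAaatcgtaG
TMSB4XP3 (chr7:29665492-29665599, plus strand): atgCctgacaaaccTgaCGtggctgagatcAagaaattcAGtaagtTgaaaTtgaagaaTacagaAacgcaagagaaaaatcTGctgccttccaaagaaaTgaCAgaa

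TMSB10 differed from TMSB4X at 37 of the 135 bases, an identity of 72.6%, and 33 of the 44 encoded residues were the same. TMSB4XP6 and TMSB4XP8 each carried 1 difference in the coding stretch, TMSB4XP1 carried 2, TMSB4XP4 carried 3 and TMSB4XP2 carried 4. TMSB4XP3 was the most diverged copy, with 16 differences over the 108 coding bases within its annotated span. In the 5 pseudogenes that aligned over all 135 bases, the reading frame held 0 stop codons before its end, and 1 or 2 codons encoded another residue. Whether any of them is translated was not measured.

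Outside the coding stretch the copies parted further. TMSB4XP8 spans 612 nt in the authors' files and matched the 622 nt TMSB4X transcript at 99.2% of aligned bases. TMSB4XP4, at 618 nt, matched at 97.2%, TMSB4XP2, at 210 nt, at 94.8%, TMSB4XP1, at 192 nt, at 94.8%, and TMSB4XP3, at 114 nt, at 82.5%. TMSB4XP6 is annotated at 135 nt, a span that covers the coding stretch alone, and matched at 99.3%. Bases beyond the annotated spans were not aligned, so how far each copy extends was not measured. Of the 10 differences of TMSB4XP1, 8 lay upstream of the start codon. At 2 positions, 30 and 19 bases before the start codon, TMSB4XP1, TMSB4XP2, TMSB4XP4 and TMSB4XP8 all carried the same base in place of that of TMSB4X.

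**Figure D1:**
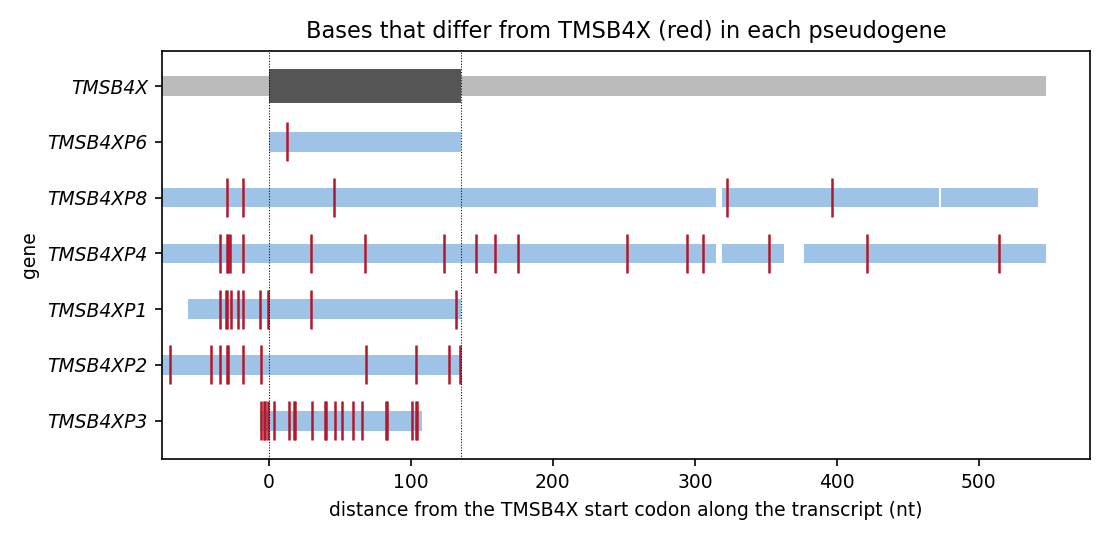
Alignment of each TMSB4X pseudogene to the TMSB4X transcript, with the distance from the start codon in nt on the horizontal axis and 1 gene per line. The dark block marks the 135 coding bases, light bars mark aligned stretches, gaps in them are bases missing from the copy, and red lines mark the bases that differ. TMSB4XP6 has 1 red line and TMSB4XP3 has 20 over 114 nt.

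The reads were 80 nt long, and the share of 80 nt windows in a pseudogene that occur unchanged in a TMSB4X transcript therefore describes how often a read from one could not be told from the other. This share was 76.8% for TMSB4XP6, 43 of 56 windows, and 37.3% for TMSB4XP8, 199 of 533 windows. It was 19.5% for TMSB4XP1, 22 of 113 windows, and 2.41% for TMSB4XP4, 13 of 539 windows. TMSB4XP2 and TMSB4XP3 shared 0 of 131 and 0 of 35 windows with TMSB4X. The coding sequence of TMSB10 shared 0 windows with TMSB4X. Sequencing errors and paired reads were not considered, and how the authors' alignment placed reads that match several positions is not given in the sources used here. The division of fragments between TMSB4X and the 4 copies that share windows with it, TMSB4XP6, TMSB4XP8, TMSB4XP1 and TMSB4XP4, is therefore uncertain.

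TMSB10 and TMSB4X were both abundant and were slightly higher in processed than in live cells. TMSB10 (ENSG00000034510, chromosome 2, 85132749 to 85133795) had 1289 FPKM in live cells, with the authors' bounds at 1277 and 1302, and 1440 FPKM after processing, with bounds at 1426 and 1454. FPKM, fragments scaled to transcript length and to the size of the library, is a level per length, which allows genes to be compared. TMSB4X (ENSG00000205542, chromosome X, 12993227 to 12995346) had 672 FPKM in live cells (bounds 664 to 679) and 700.2 FPKM after processing (bounds 692 to 708). The log2 ratio of processed to live, after adding 1 to each FPKM, was 0.16 for TMSB10 and 0.06 for TMSB4X. The bounds of live and processed cells did not overlap for either gene, which also held for 71.8% of the 17326 genes that reached 1 FPKM in either library. Such bounds cover the error within each library only.

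Over those 17326 genes the median log2 ratio was -0.09, so both thymosins lay above it. Among the 210 genes with a mean FPKM between 300 and 3000, the median was -0.05 and 5% and 95% of the ratios lay below -0.31 and 0.26. TMSB4X and TMSB10 both lay inside this range. By level TMSB10 stood 38th of all genes in live cells and 31st in processed cells, and TMSB4X 106th and 95th. TMSB10 was 1.92 times TMSB4X in live cells and 2.06 times in processed cells. The genes closest to TMSB10 in both libraries were MDK (1362 and 1373 FPKM in live and processed cells), which encodes the growth factor midkine, RPS3 and RPL37A. Closest to TMSB4X were RPL28 (692 and 727 FPKM), the pseudogene CTB-63M22.1 and RPL30, at distances of at most 0.08 on the plane of the log2 values. Likeness over 2 libraries is a likeness of level only.

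**Figure D2:**
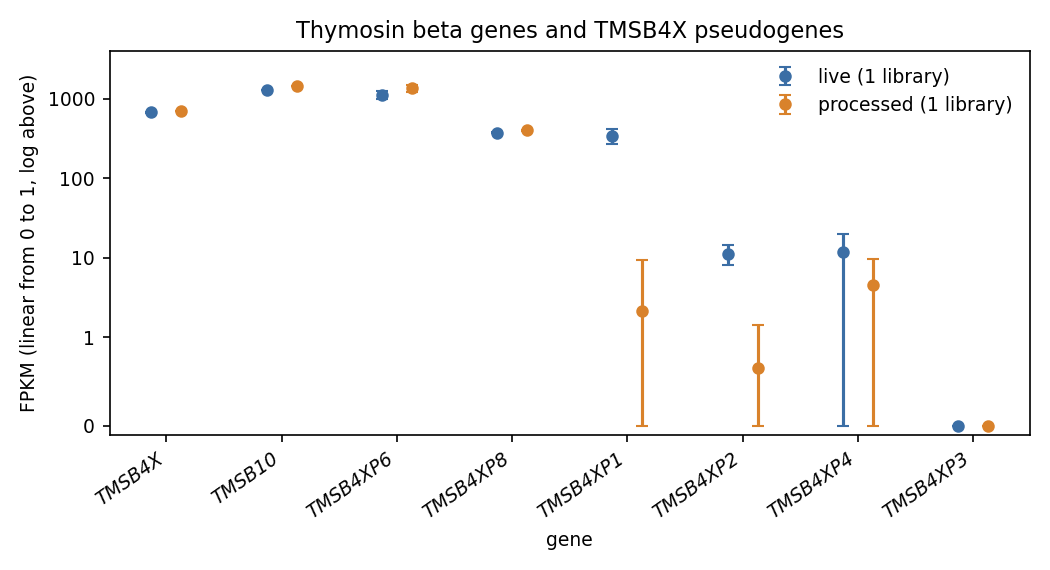
FPKM of the 8 genes in the live (blue) and the processed (orange) library, on an axis that is linear from 0 to 1 and logarithmic above, with the authors' lower and upper bounds as bars. TMSB4X, TMSB10, TMSB4XP6 and TMSB4XP8 lie side by side in both libraries, TMSB4XP1 and TMSB4XP2 are far lower in processed cells, and TMSB4XP3 is listed at 0 in both.

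The 2 pseudogenes with the highest coding identity also had the highest FPKM in both libraries and were close in live and processed cells. TMSB4XP6 (ENSG00000230043, chromosome 20, 49457152 to 49457286) had 1127 FPKM in live cells (bounds 993 to 1260) and 1355 FPKM after processing (bounds 1214 to 1496), a log2 ratio of 0.27, and the bounds overlapped. TMSB4XP8 (ENSG00000187653, chromosome 4, 91759652 to 91760263) had 372 FPKM in live cells (bounds 366 to 377) and 403 FPKM after processing (bounds 397 to 409), a log2 ratio of 0.12, and the bounds did not overlap. TMSB4XP8 stood at 0.553 of the FPKM of TMSB4X in live cells and 0.575 in processed cells. TMSB4XP6 was listed above TMSB4X itself, at 1.68 and 1.94 times its FPKM. As the annotated span of TMSB4XP6 is shorter than a fragment, these ratios do not show that the copy is expressed above its parent.

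The largest difference was that of TMSB4XP1 (ENSG00000236876, chromosome 1, 42965876 to 42966067). It had 341 FPKM in live cells (bounds 267 to 415) and 2.15 FPKM after processing (bounds 0 to 9.37), a log2 ratio of -6.76. The FPKM was 159 times lower in processed cells, and still 28.5 times lower between the nearest bounds. Of the 8497 genes outside the Y chromosome that reached 10 FPKM in a library, 5 had a lower log2 ratio. The 3 genes nearest to it in both libraries were all listed at 0 in processed cells, namely the pseudogene RP11-252P18.1 of 121 nt, with 358 FPKM in live cells, and the U6 small nuclear RNA genes RNU6-33 and U6 of 107 nt each, with 368 and 391 FPKM. They lay at distances of 1.66 to 1.67 on the plane of the log2 values, so they were not close to TMSB4XP1 in level.

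TMSB4XP2 (ENSG00000188765, chromosome 2, 3665138 to 3665347) had 11.3 FPKM in live cells (bounds 8.08 to 14.6) and 0.655 FPKM after processing (bounds 0 to 1.44), a log2 ratio of -2.90. This was 17.3 times lower, and 5.60 times lower between the nearest bounds. TMSB4XP4 (ENSG00000223551, chromosome 9, 131104432 to 131105049) had 11.9 FPKM in live cells (bounds 0 to 19.8) and 4.59 FPKM after processing (bounds 0 to 9.55), a log2 ratio of -1.20. Its status in the files is LOWDATA in both libraries and its bounds overlapped, so the libraries cannot be told apart for this gene. Nearest in level to TMSB4XP2 were the pseudogenes SNRPGP2 (10.8 and 0.596 FPKM) and NUS1P1 (10.1 and 0.629 FPKM) and RP11-80H18.3, and nearest to TMSB4XP4 were SMAD1 (11.5 and 4.54 FPKM), HIST3H2A and MBD5. TMSB4XP3 (ENSG00000223437, chromosome 7, 29665486 to 29665599), the most diverged copy, was listed at 0 FPKM in both libraries.

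Of the 8 genes, 7 reached 1 FPKM in either library. More than 2-fold lower in processed cells were 3 of them, TMSB4XP1, TMSB4XP2 and TMSB4XP4, and 0 were more than 2-fold higher. Among all 17326 genes at this level, 6.19% were more than 2-fold lower and 6.57% more than 2-fold higher, 12.8% in both directions together. Of 1675 annotated pseudogenes 29.6% passed 2-fold, and 16.8% were lower. The share was 58.7% of the 126 that span less than 300 nt and 27.2% of the 1549 longer ones. Of the TMSB4X pseudogenes with an FPKM of at least 1, TMSB4XP1, TMSB4XP2 and TMSB4XP6 are shorter than 300 nt, and the first 2 of them passed 2-fold. A count near this share says nothing particular about TMSB4X pseudogenes.

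The authors' bounds give a measure of the precision of each FPKM. Where the upper bound lies 2 SD of a fragment count above the FPKM, its distance from the FPKM gives the number of fragments, here called fragment equivalents. In 487 genes annotated with 1 transcript, longer than 500 nt, the FPKM of 1 fragment equivalent times the length less 170 nt, in kb, had a median of 0.0100 in live cells, with quartiles at 0.00999 and 0.0103. In processed cells the median was 0.0108, with quartiles at 0.0107 and 0.0110. The narrow quartiles show that the bounds scaled with fragment number in these genes, whereas the factor of 2 SD is an assumption.

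On this scale TMSB10 rested on 41102 fragment equivalents in live cells and 43178 in processed cells, TMSB4X on 29737 and 28665, and TMSB4XP8 on 16362 and 16612. TMSB4XP6, with a higher FPKM than TMSB4X, gave 285 and 367. TMSB4XP1 gave 84.6 in live cells and 0.354 in processed cells, and TMSB4XP2 gave 48.5 and 2.78. TMSB4XP4 gave 8.95 and 3.41, but the ratio of its FPKM to this number was not that of a gene of 618 nt, and its low-data bounds are not read as a fragment number. One fragment equivalent was worth 4.03 FPKM for TMSB4XP1 and 3.95 FPKM for TMSB4XP6 in live cells, compared with 0.0226 FPKM for TMSB4X and 0.0227 FPKM for TMSB4XP8. For TMSB4XP1 this corresponds to an effective length of 2.49 nt in live and 1.78 nt in processed cells, which is not that of a gene of 192 nt less 170 nt, so its numbers too are read as the precision of the bounds and not as fragments. For TMSB4XP6, shorter than 170 nt, the relation to length could not be checked.

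**Figure D3:**
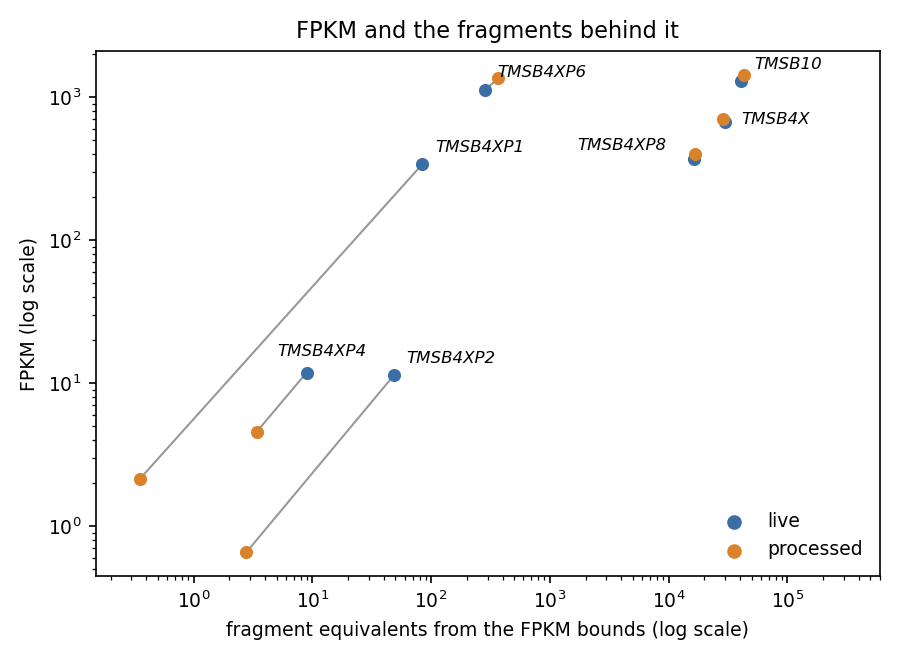
FPKM against fragment equivalents for the 7 genes above 0, both on log scales, with live (blue) and processed (orange) values of a gene joined by a line. TMSB4XP6 and TMSB4XP1 have 1127 and 341 FPKM in live cells at 285 and 84.6 fragment equivalents, whereas TMSB4XP8 has 372 FPKM at 16362.

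Summed over TMSB4X and its 6 pseudogenes, the FPKM differed little between the libraries. The sum was 2534 live and 2465 processed, a ratio of 0.973. With each FPKM multiplied by a length the ratio was 0.995. This length was that of the 622 nt transcript for TMSB4X and the annotated span for each pseudogene. For fragment equivalents, 46526 and 45650, the ratio was 0.981. By FPKM, TMSB4XP1 made up 13.5% of the sum in live cells and 0.0871% in processed cells, while TMSB4XP6 made up 44.5% and 55.0%, TMSB4X 26.5% and 28.4%, and TMSB4XP8 14.7% and 16.3%. By fragment equivalents, TMSB4X made up 63.9% and 62.8% and TMSB4XP8 35.2% and 36.4%. On that scale TMSB4XP6 made up 0.613% and 0.805%, and TMSB4XP1 0.182% in live cells. With FPKM multiplied by length, TMSB4XP6 made up 17.4% and 21.1%, and TMSB4XP1 7.51% in live cells. The shares of these 2 short copies thus differ with the scale used. The fragment equivalents of TMSB4XP1 are not read as fragments, and those of TMSB4XP6 could not be checked against length. Whether fragments listed under TMSB4XP1 in live cells were listed under another copy in processed cells was not tested, since the files hold no reads.

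Each of the 6 pseudogenes lies inside the span of another gene. TMSB4XP1 lies in CCDC30 (6.97 and 5.29 FPKM in live and processed cells), TMSB4XP6 in BCAS4 (7.90 and 9.58 FPKM), TMSB4XP2 in COLEC11 (0.213 and 1.13 FPKM), TMSB4XP8 in FAM190A (0.719 and 0.170 FPKM), TMSB4XP4 in SLC27A4 (9.08 and 5.32 FPKM) and TMSB4XP3 in AC007255.7 (0.647 and 3.14 FPKM). TMSB4XP4 is annotated on the same strand as SLC27A4, a fatty acid transporter, and the other 5 on the opposite strand. TMSB4XP1 in live cells was listed far above its host, but FPKM does not allow so short a gene to be compared with a long one. The log2 ratio of CCDC30 was -0.34. Whether reads of CCDC30 entered the value of TMSB4XP1 was not tested. TMSB10 lies inside the span of TRABD2A on the opposite strand, which had 3.22 FPKM in live cells and 1.08 FPKM after processing, a log2 ratio of -1.02. Whether the reads were counted by strand is not given in the sources used here.

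The other beta thymosins were lower. TMSB15A had 53.6 FPKM in live cells and 53.1 FPKM after processing, with overlapping bounds. TMSB15B had 12.3 FPKM (bounds 11.5 to 13.1) and 10.5 FPKM (bounds 9.69 to 11.3), a log2 ratio of -0.21. TMSB10P1, a pseudogene of TMSB10 with 132 nt, was listed at 17.2 FPKM in live cells (bounds 0 to 36.0), from 3.36 fragment equivalents, and at 0 in processed cells. TMSB10P2 was listed at 0 in both.

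Of 41 genes that handle actin monomers and filaments, all 41 reached an FPKM of 1, 0 were more than 2-fold higher and 1 was more than 2-fold lower in processed cells, compared with 12.8% of all genes past 2-fold in either direction. Their median log2 ratio was -0.19, beside -0.09 for all genes. The single gene past 2-fold was TMOD1, which caps the pointed ends of filaments, with 3.46 FPKM in live cells (bounds 3.19 to 3.72) and 0.248 FPKM after processing (bounds 0.171 to 0.325). Below 0 were 34 of the 41 log2 ratios, beside 10094 of the 17326 genes that reached 1 FPKM. Once processed values were divided by 0.932, the median over genes of processed FPKM relative to live, 24 of the 41 were below 0. No count over all genes was made after this division.

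Among the actins themselves, ACTG1 (cytoplasmic gamma actin) had 2175 FPKM in live cells and 1753 after processing, a log2 ratio of -0.31, and ACTB (cytoplasmic beta actin) had 1970 and 1879 FPKM, a log2 ratio of -0.07. PFN1, the profilin that competes with thymosins for actin monomers and delivers them to growing ends, had 364 and 402 FPKM, a log2 ratio of 0.14. PFN2, a second profilin, had 120 and 108 FPKM. CFL1, the cofilin that severs filaments, had 515 and 540 FPKM, and CFL2 had 23.2 and 18.9 FPKM. CAP1 and CAP2, which recycle monomers from cofilin, had log2 ratios of -0.30 and -0.01, and the monomer-binding twinfilins TWF1 and TWF2 had -0.33 and -0.19. GSN, which encodes the severing protein gelsolin, had 29.9 and 20.0 FPKM, a log2 ratio of -0.55. After division by the median ratio the log2 ratio of ACTB lies above 0.

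**Figure D4:**
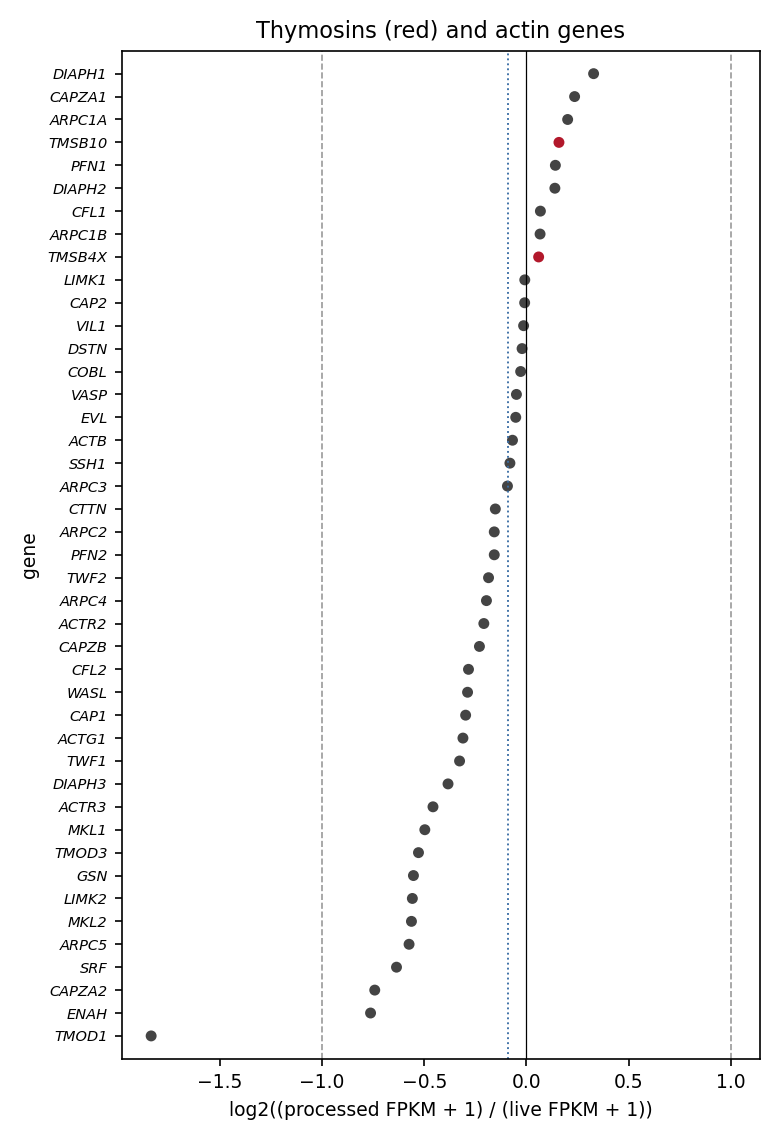
Log2 ratio of processed to live FPKM, after adding 1 to each, for 41 actin genes (grey) and for TMSB4X and TMSB10 (red), in order of the ratio. Dashed lines mark 2-fold, the dotted line the median of all genes at -0.09, and TMOD1 at -1.84 is the only one of these genes past 2-fold.

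Pseudogenes of 15 other abundant mRNAs were read for comparison, and none of those at or above 10 FPKM differed more than 2-fold. Of 300 numbered pseudogenes of these genes, 50 reached an FPKM of 1, of which 6 were more than 2-fold lower and 4 more than 2-fold higher in processed cells. All 10 had an FPKM below 10. Of the 24 that reached 10 FPKM, 0 passed 2-fold. All 5 TMSB4X pseudogenes above 0 reached 10 FPKM in live cells, and 3 of them passed 2-fold. Those 3 met the filter only through the live library, where they were high, so the contrast is a description and not a test. For TMSB4XP4, 1 of the 3, the low-data bounds overlapped. Over all genes at that level, 5.01% passed 2-fold and 2.02% were lower. The lowest of the 24 were FTH1P16, with 16.4 FPKM in live cells and 8.96 in processed cells, YBX1P1, with 11.9 and 7.62, and FTH1P7, with 102 and 74.2. The highest were PFN1P1, with 35.1 and 54.4 FPKM, ACTBP2, with a log2 ratio of 0.42, and NPM1P5, with 49.2 and 60.1. Of the 50 pseudogenes, 48 spanned 300 nt or more, whereas 3 of the 5 TMSB4X copies did not, so length and family cannot be told apart here.

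**Figure D5:**
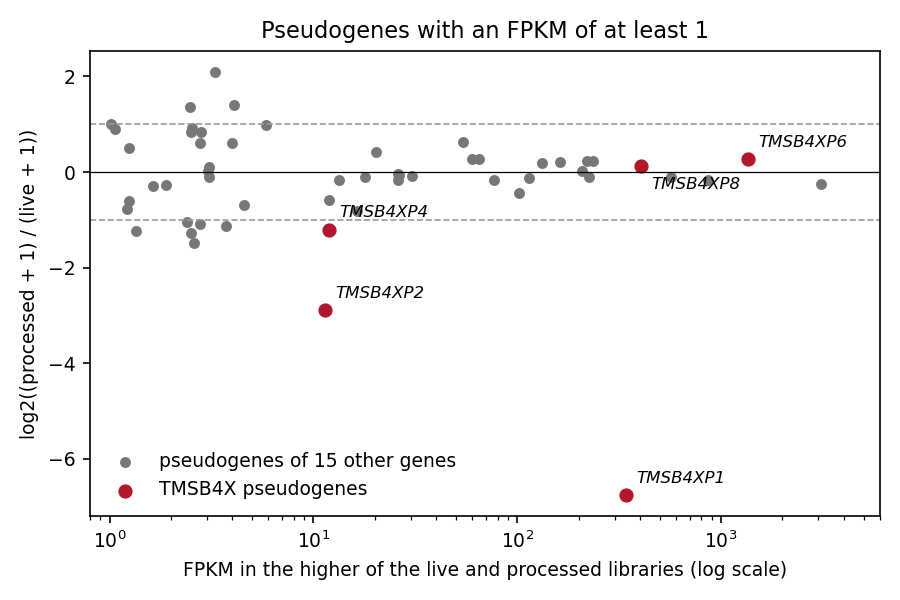
Log2 ratio of processed to live FPKM, after adding 1 to each, against the higher FPKM of the 2 libraries on a log scale, for TMSB4X pseudogenes (red) and 50 numbered pseudogenes of 15 other genes (grey). Dashed lines mark 2-fold. Above 10 FPKM the grey points stay within 2-fold. TMSB4XP1, TMSB4XP2 and TMSB4XP4 lie below -1, and they exceed 10 FPKM in the live library only.

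The labelled cells were checked by markers of islet endocrine cells, and 6 of 6 had an FPKM of at least 1 in both libraries. Of these, 0 differed more than 2-fold, beside 12.8% of all genes that reached 1 FPKM. So short a list cannot show that markers differ less than other genes. The processed value of CHGA, 1 of the 6, was 1741 FPKM, with the status FAIL and bounds from 0 to 4712, so it is no usable check. INS, for insulin, had 98.3 and 121 FPKM in live and processed cells. Blood cells are rich in thymosin beta 4. Of 7 of their markers 2 reached 1 FPKM in either library, beside 17326 of all 55797 genes. All 7 summed to 4.32 FPKM before and 2.53 FPKM after processing. PPBP and HBA1 were listed at 0 in both libraries, and CD68 had 0.830 and 0.703 FPKM, with overlapping bounds. HBB had 0.0371 and 0 FPKM, PTPRC had 0.174 and 0 FPKM, and AIF1 had 2.71 and 0 FPKM. PF4 went the other way, with 0.575 and 1.83 FPKM and bounds that did not overlap. The 5 mesenchymal markers summed to 74.1 and 67.0 FPKM. Of these 1, PDGFRB, was more than 2-fold lower after processing, at 4.26 and 1.17 FPKM, beside 6.19% of all genes. COL1A2 was higher after processing, at 21.5 and 26.6 FPKM. In a mixed culture, fewer cells of a type and less RNA per cell cannot be told apart, and the part of either cell type in the thymosin values was not tested.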

How the data were processed

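Poly-A RNA of 1 live and 1 processed sample was read from both fragment ends over 80 nt. The authors aligned reads to GRCh37/hg19 with STAR 2.2.0c, guided by GENCODE 14, and deposited FPKM values from Cufflinks 2.0.2, named Cuffdiff in the paper, with a lower and an upper bound whose level is not stated. Read counts were not used here. FPKM summed to 510713 in live and 499398 in processed cells.

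Genes were joined by identifier, and loci were moved to 1-based positions. Log2 ratios used a pseudocount of 1. Counts past 2-fold cover genes that reached 1 FPKM in either library. Gene type, strand and sequence came from GENCODE 44 mapped to GRCh37, which held 94.5% of identifiers and all 8 members, 4 of them with the same span. Pseudogenes were aligned to transcript TMSB4X-204 with Biopython 1.88 (match 1, mismatch -2, gap opening -5, extension -1, free ends). Values were computed with Python 3.11.15, numpy 2.4.6 and pandas 2.3.3, and tested on simulated data. The simulation set bounds at 2 SD, so its recovery of fragment numbers was fixed in advance. It held only genes longer than 500 nt with at least 10 FPKM in live cells, and so does not cover the short copies. Precision is that of the bounds, which cover error within a library only. Their scaling with fragment number was checked in the 487 genes with 1 transcript alone.

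The members and lists were chosen with earlier results of these data known. Named are the members, other beta thymosins, actins, profilins, cofilins, CAP1, CAP2, twinfilins, gelsolin, any of the 41 actin genes past 2-fold, 4 further partners, overlapping genes (also those below 1 FPKM, added after their values were seen), the 3 nearest genes by level, and the 3 highest and 3 lowest ratios of other pseudogenes at 10 FPKM or more. One listed marker gene is not reported here. Alternatives covered pseudocount, filter, scaling and bounds.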

Additional observations from a re-analysis of the deposited data

How the results depend on the processing

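No paired analysis was possible because each condition has 1 library. Counts and log2 ratios were recomputed under 34 alternatives, of which 33 were planned and 1, the sum of fragment equivalents, was chosen after seeing the data. The direction of the log2 ratios of TMSB4X, TMSB10, the 5 pseudogenes above 0 and the family sum stayed as reported under those run for them. Division by the median ratio was not run for the family sum. The ratio of that sum, 0.973, lies above the median ratio of 0.932, so this division would put its log2 ratio above 0. Of the 34 values, 27 moved by less than the authors' bounds allow or, for counts, by at most 1.5 times. With FPKM rescaled to the same sum, the log2 ratio of TMSB10 was 0.19. With processed FPKM divided by the median ratio, it was 0.26, that of TMSB4X was 0.16 and that of TMSB4XP8 was 0.22. With a minimum of 10 FPKM, 0 actin genes and 0 pseudogenes of other families passed 2-fold, since fewer genes were counted, and with a pseudocount of 0.1, 17 pseudogenes of other families passed it in place of 10. The number of TMSB4X pseudogenes called was 3 by fold and 3 by bounds that do not overlap, but by bounds TMSB4XP8 took the place of TMSB4XP4. Wide bounds in processed cells limit TMSB4XP1 and TMSB4XP2, and the low-data status in both libraries limits TMSB4XP4.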

Other observations

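Thymosin beta 4 has partners beyond actin, of which 4 were read in both libraries. PREP, the peptidase that releases a short peptide from the start of thymosin beta 4, had 19.2 FPKM in live cells (bounds 18.5 to 19.8) and 23.0 FPKM after processing (bounds 22.2 to 23.8). ACE, the enzyme that breaks this peptide down, had 1.34 FPKM (bounds 1.16 to 1.51) and 3.92 FPKM (bounds 3.25 to 4.59), and was the only one of the 4 past 2-fold, beside 12.8% of all genes past 2-fold and 6.57% higher. ILK, a kinase at sites of cell adhesion, had 50.7 and 49.4 FPKM, with overlapping bounds. LIMS1, which binds ILK, had 21.5 and 15.8 FPKM. With 1 library per condition these differences have no replicate check.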
